A study of Rattus norvegicus with 11 samples.

Results

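The 8 genes Mbp, Prx, Pmp2, Pmp22, S100b, Sox10, Egr2 and Nefm mark Schwann cells and the axons they wrap, and were followed as a readout of the peripheral nerve carried by each piece of soleus muscle. They were taken by symbol from the 16810 gene rows of the deposited count table. All 8 had a row and all 8 were among the 10814 genes with enough counts to test. Messenger RNA had been sequenced from the soleus, a slow postural muscle of the hind limb, of 11 male Sprague Dawley rats aged 12 months. The high-fat group was 5 offspring of mothers fed on much saturated fat and sugar (20% sucrose, with fat given as 23.3% in one label and 23.5% in another) from 3 weeks before mating until the end of lactation. The control group was 6 offspring of mothers fed chow over the same period (10% sucrose, with fat given as 6% or 7%). Both groups were weaned at day 21 onto the same standard chow, so the groups differed in the mother's diet and not in their own adult diet. Every litter gave 1 animal, and every animal 1 library. The tissue was whole muscle with no sorting of cells, so muscle, vessels, connective tissue and nerve branches all contributed RNA.

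Schwann cells are the glia of peripheral nerve. The myelinating kind wraps a single large axon in compacted membrane, whose structure depends on a few very abundant proteins and on lipids made for the purpose. The transcription factor Sox10 is needed throughout the lineage, and together with Egr2 (also called Krox20) it switches on the genes of the myelin sheath. Mbp (myelin basic protein), Pmp22 (a membrane protein of compact myelin) and Pmp2 (a fatty acid binding protein) belong to the sheath itself. Prx (periaxin) is a scaffold that links the outer Schwann cell membrane to the cell's surroundings. S100b is a calcium binding protein of glia that some other cells also make. Nefm is a neurofilament subunit of axons, made by neurons whose cell bodies lie outside the muscle. Soleus holds such nerve as intramuscular branches that end at neuromuscular junctions.

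Promoter windows of 3 myelin genes are shown because Sox10 and Egr2 are known regulators of the sheath genes. The sequences are from RefSeq (assembly GRCr8), cover 250 bases before to 50 bases after the annotated start, and read 5′ to 3′ on the gene's strand. Capitals mark matches to the EGR-type motif GTGGGNG on either strand, so that CACCCAC is its reverse complement. Ncmap, a Schwann cell myelin protein, was chosen after its values had been seen.
Prx, chr1:91914171-91914470, + strand: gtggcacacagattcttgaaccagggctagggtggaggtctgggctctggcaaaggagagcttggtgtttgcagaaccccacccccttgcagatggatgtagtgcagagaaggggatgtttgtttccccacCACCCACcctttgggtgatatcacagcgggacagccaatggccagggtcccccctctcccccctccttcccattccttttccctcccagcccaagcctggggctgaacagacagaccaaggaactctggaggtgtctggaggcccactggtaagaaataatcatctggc
Ncmap, chr5:152902365-152902664, − strand: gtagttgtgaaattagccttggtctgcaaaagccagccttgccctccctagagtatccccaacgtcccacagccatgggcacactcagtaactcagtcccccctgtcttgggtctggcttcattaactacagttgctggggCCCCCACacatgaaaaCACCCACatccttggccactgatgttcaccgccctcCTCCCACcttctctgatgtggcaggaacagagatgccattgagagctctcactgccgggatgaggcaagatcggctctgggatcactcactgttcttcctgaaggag
Pmp22, chr10:48294682-48294981, + strand: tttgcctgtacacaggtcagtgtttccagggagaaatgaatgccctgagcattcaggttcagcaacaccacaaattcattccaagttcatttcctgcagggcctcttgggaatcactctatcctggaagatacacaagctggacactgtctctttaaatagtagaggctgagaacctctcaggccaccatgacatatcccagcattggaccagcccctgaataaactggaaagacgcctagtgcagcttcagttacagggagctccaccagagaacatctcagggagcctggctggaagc
The Prx window held 1 match at position -119 from the start. The Ncmap window held 3, at -109, -93 and -57. The Pmp22 window held none. A SOX-type motif, ACAANG on either strand, was in none of these 3 windows. For Mbp, whose windows are not printed, annotation entry 2 held SOX-type matches at -240, -197 and -162 and an EGR-type match at -59. Entry 1 of Mbp held neither. Over 20 windows of 18 of the 24 genes that are members or other myelin proteins, 9 held an EGR-type match and 4 a SOX-type match. Among all 33469 promoters of the same length, 28.8% held an EGR-type match and 42.1% a SOX-type match. A match of these letters is a description of the window and says nothing about binding.

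Libraries held 10.2 to 15.4 M counts (M, mega), and a count of 0 allows a level of up to 0.179 to 0.320 counts per M (CPM), which are 3 counts of the library's total. Values are CPM scaled with edgeR's trimmed mean of M values (TMM). They carry no correction for transcript length, so levels are compared between animals and not between genes. Slow fibre RNA was plain in every library, with the slow fibre myosin Myh7 at 17353 to 25128 CPM in high-fat animals and 18422 to 23557 CPM in control animals. The summed level of 8 fast fibre genes differed widely, at 3325 to 26884 CPM in high-fat animals and 1959 to 35225 CPM in control animals. Libraries of one group differed from each other in all 25 pairs, with a chi-square of 25.1 or more per degree of freedom, so each was counted once. Control animal 5 stood apart in the nerve genes, and the results are therefore given with and without it. A total of 42 genes had at least 30 counts in control animal 5 and over 4 times the level of the highest other library. The same count was 13 in high-fat animal 4, 1 each in high-fat animal 3, control animal 1 and control animal 2, and 0 in the other 6 libraries. Over all genes tested, control animal 5 had the highest value for 817 of 10814 (7.56%), and its median ratio to the median of the 10 other libraries was 0.995.

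The 8 nerve genes together took 0.160% of the counts of control animal 5 (23072 of 14394264 counts, exact binomial 95% interval 0.158% to 0.162%, counting error only). In the other libraries they took 0.0115% in control animal 6 up to 0.0344% in high-fat animal 5. Control animal 5 was the highest of the 11 libraries for 6 of the 8 genes, Mbp, Prx, Pmp2, Pmp22, S100b and Sox10. It was the second for Nefm and the fifth for Egr2. In bulk muscle, more Schwann cells in the piece and more RNA of these genes per Schwann cell cannot be told apart.

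Among the sheath proteins, Mbp was read at 55.3, 15.6, 17.4, 27.96 and 61.6 CPM in high-fat animals 1 to 5, against a lowest value of 13.0, a median of 32.5 and a highest of 843 CPM in the 6 control animals. The highest belonged to control animal 5, 8.72 times the next library, which was control animal 2 with 96.7 CPM. With it left out, the groups covered much the same range, 15.6 to 61.6 CPM in high-fat animals and 13.0 to 96.7 CPM in the 5 other control animals. Pmp2 was near the limit of detection in most libraries, at 1.08, 0, 0, 0.191 and 1.37 CPM in high-fat animals 1 to 5. Control animals ran from 0.183 CPM through a median of 0.686 to 53.1 CPM. The 53.1 CPM of control animal 5 rested on 775 counts, and the next library, control animal 2 at 3.12 CPM, had 41. No other library had more than 23 counts of Pmp2, so its differences among the remaining animals are poorly measured. Pmp22 had 135, 83.0, 128, 96.4 and 160 CPM in high-fat animals 1 to 5, against a lowest value of 64.3, a median of 117 and a highest of 405 CPM in control animals. Control animal 5 exceeded the next library, high-fat animal 5, by 2.52 times, a smaller step than for Mbp or Pmp2. Pmp22 is also made outside Schwann cells, for example by fibroblasts.

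The scaffold gene Prx had a narrow range outside control animal 5. It had 11.9, 8.63, 7.20, 9.30 and 12.9 CPM in high-fat animals 1 to 5, against a lowest value of 6.12, a median of 9.31 and a highest of 112 CPM in control animals. Control animal 5 was 8.67 times the next library, and the other 10 spanned 6.12 to 12.9 CPM with the groups overlapping.

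Sox10, the lineage regulator, had 1.83, 1.81, 0.669, 1.08 and 1.37 CPM in high-fat animals 1 to 5, against a lowest value of 0.408, a median of 1.38 and a highest of 9.65 CPM in control animals. Control animal 5 was 5.28 times the next library, and the remaining libraries held between 5 and 23 counts each. Egr2, its partner in myelination, did not share this pattern, with 3.08, 0.959, 8.28, 1.53 and 2.57 CPM in high-fat animals 1 to 5, against a lowest value of 1.83, a median of 3.74 and a highest of 5.71 CPM in control animals. Its highest value was in high-fat animal 3 and its level in control animal 5, 3.63 CPM, lay inside the range of the other control animals. Egr2 is also an immediate early gene, one of the genes that many cell types raise within minutes of a stimulus. The summed level of 8 such genes in control animal 5 was 546 CPM, the lowest of the 11 libraries, against 596 to 1101 CPM in high-fat animals and 630 to 1537 CPM in the other control animals. The correlation of Egr2 with these genes is given under other observations. The part of such induction in the Egr2 values was not tested.

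S100b had 12.4, 15.8, 30.4, 31.7 and 61.0 CPM in high-fat animals 1 to 5, against a lowest value of 13.1, a median of 40.3 and a highest of 147 CPM in control animals. Control animal 5 was 2.41 times the next library, high-fat animal 5, and the remaining libraries overlapped, at 12.4 to 61.0 CPM in high-fat animals and 13.1 to 53.8 CPM in control animals. The neurofilament gene Nefm had 1.83, 1.92, 3.93, 1.02 and 4.47 CPM in high-fat animals 1 to 5, against a lowest value of 0.751, a median of 2.93 and a highest of 7.01 CPM in control animals. Here the highest library was control animal 2, and control animal 5 followed with 5.82 CPM. Against the median of the 10 other libraries, control animal 5 stood at 2.49 times for Nefm, 3.47 times for Pmp22, 4.74 times for S100b, 12.5 times for Prx and 29.2 times for Mbp.

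**Figure D1:**
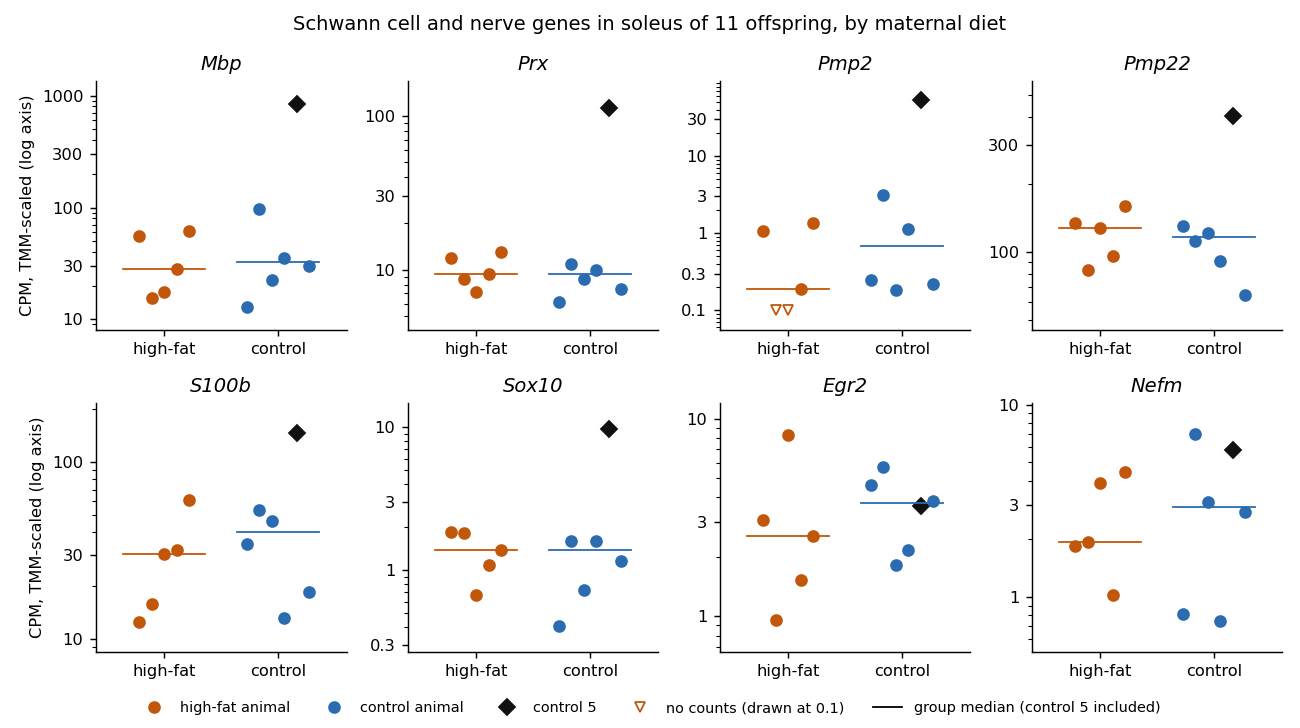
Level of each of the 8 Schwann cell and nerve genes in each library, as TMM-scaled CPM on log axes, with high-fat animals on the left and control animals on the right of each panel; lines are group medians, the diamond is control animal 5 and open triangles are libraries with no counts, drawn at 0.1. The diamond is the highest point for Mbp, Prx, Pmp2, Pmp22, S100b and Sox10 and not for Egr2 or Nefm, and the remaining points of both groups overlap in every panel.

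The design asks whether the mother's diet was associated with these genes in the adult muscle. With all 11 libraries the mean of each of the 8 genes was lower in the high-fat group, and no gene passed the test (edgeR's quasi-likelihood test, p adjusted by Benjamini-Hochberg over all 10814 genes, threshold 0.05). The same test called 0% of all genes tested, and 49.1% of all genes were lower in the high-fat group. At an unadjusted p under 0.05 stood 2 of the 8 genes, Mbp and Pmp2, beside 4.84% of all genes (523). The groups overlapped for all 8 genes, whereas 0.361% of all genes (39) did not overlap. The median log2 fold change was -0.86 over the 8 genes and 0.0039 over all genes tested.

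Mbp averaged 35.6 ± 21.5 CPM over the 5 high-fat animals and 173 ± 330 CPM over the 6 control animals (mean ± SD), a log2 fold change of -2.28 ± 1.02 (SE; edgeR adjusted p = 0.974). Leaving out control animal 5 brought the control mean to 39.4 ± 33.1 CPM (n = 5) and the log2 fold change to -0.17 ± 0.52 (SE; edgeR adjusted p = 0.984). Pmp2 averaged 0.529 ± 0.650 CPM over the 5 high-fat animals and 9.66 ± 21.3 CPM over the 6 control animals (mean ± SD), with a log2 fold change of -4.08 ± 1.54 (SE; edgeR adjusted p = 0.974). The control mean of Pmp2 without that animal was 0.979 ± 1.26 CPM (n = 5) and the gene no longer had enough counts for the fit. Its mean log2 CPM was then -1.19 in high-fat animals and -0.45 in control animals, a difference of -0.75 (two-sided exact permutation test over 252 splits, p = 0.476). That difference was -0.21 when control animal 2 was also left out, -1.20 when high-fat animal 5 was also left out and -1.35 with a prior count of 0.5, and none of the 3 passed. The size of both differences thus rested on 1 control library. It also changed when the first letter of the animals' names, a letter that no source used here explains, was added as a covariate after seeing the data. The log2 fold change was then -0.36 for Mbp, -0.39 for Prx, -2.18 for Pmp2 and 0.36 for Nefm, and edgeR called no gene.

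For Prx the direction itself turned. It averaged 9.99 ± 2.37 CPM over the 5 high-fat animals and 25.9 ± 42.3 CPM over the 6 control animals (mean ± SD), with a log2 fold change of -1.38 ± 0.74 (SE). When control animal 5 was left out the control mean was 8.61 ± 1.88 CPM (n = 5) and the log2 fold change 0.19 ± 0.20 (SE; edgeR adjusted p = 0.974). Pmp22 and Sox10 turned in the same way. Pmp22 averaged 121 ± 31.0 CPM over the 5 high-fat animals and 154 ± 125 CPM over the 6 control animals (mean ± SD), or 104 ± 26.6 CPM over the 5 controls left without control animal 5. Its log2 fold change was -0.35 ± 0.40 with all libraries and 0.19 ± 0.21 without that animal (SE). Sox10 averaged 1.35 ± 0.495 CPM over the 5 high-fat animals and 2.52 ± 3.52 CPM over the 6 control animals (mean ± SD), or 1.10 ± 0.528 CPM over the 5 controls left without control animal 5. Its log2 fold change was -0.93 ± 0.69 with all libraries and 0.26 ± 0.40 without that animal (SE). None of these 3 genes passed the adjusted threshold in either fit.

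The remaining genes kept a negative sign with and without control animal 5. S100b had a log2 fold change of -0.78 ± 0.57 with all libraries and -0.15 ± 0.44 without control animal 5 (SE). Nefm had -0.36 ± 0.56 with all libraries and -0.16 ± 0.58 without that animal (SE). Egr2, for which control animal 5 was unremarkable, hardly moved, at -0.16 ± 0.47 with all libraries and -0.18 ± 0.51 without that animal (SE). Its value moved with other animals instead, to -0.83 without high-fat animal 3 and to 0.06 without high-fat animal 2. In the 10 libraries without control animal 5, 7 of the 8 genes could be tested, 4 had a lower mean in the high-fat group and 3 a higher one, beside 53.5% of all genes lower. No gene passed, with 0% of 10733 genes called, and 0 of the 7 had an unadjusted p under 0.05, beside 3.83% of all genes (411). The groups still overlapped for all 8 genes, beside 0.540% of all genes (58) that did not overlap. With DESeq2, another count test, none of the 8 genes was called with all libraries, beside 0.0649% of all genes (7 genes), and Mbp, Prx and Pmp2 received no p-value, which DESeq2 withholds from genes with an extreme count in 1 sample. With DESeq2 and without that animal none of the 8 was called either, beside 0.0839% of all genes (9 genes).

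**Figure D2:**
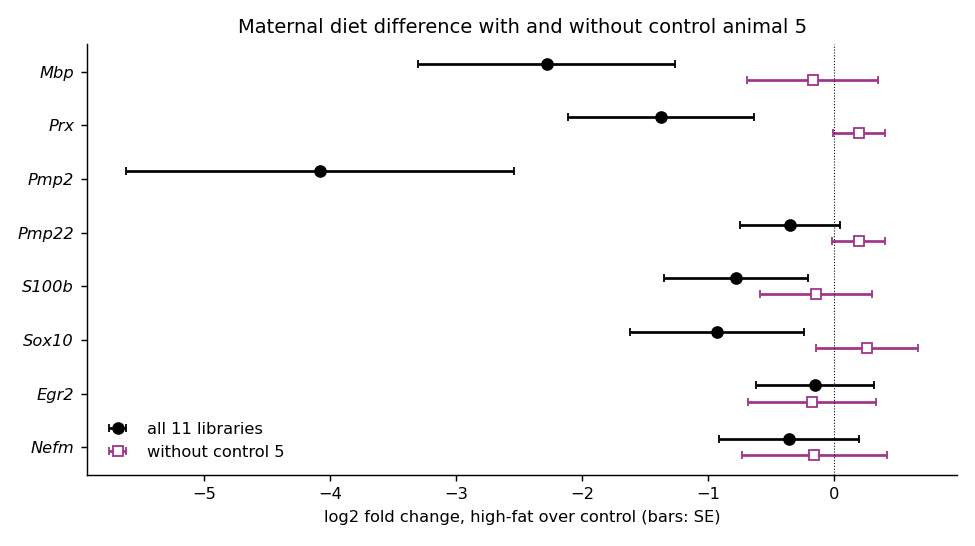
Log2 fold change of each Schwann cell and nerve gene, high-fat over control, from the edgeR fit; filled circles use all 11 libraries, open squares leave out control animal 5, bars are standard errors, and Pmp2 has no square because it fell below the count filter. Every circle lies left of 0, from -4.08 for Pmp2 to -0.16 for Egr2, while the squares lie between -0.18 and 0.26.

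The 8 genes make 28 pairs, whose correlation across animals was measured on log2 CPM. With all 11 libraries, Pearson's r was positive in 27 pairs with a median of 0.629. In 7 pairs it passed Benjamini-Hochberg adjustment over the 28 pairs (permutation tests with 100000 random pairings), and by Spearman's rank correlation 2 pairs passed. In the 10 libraries left without control animal 5 the median r was 0.275, 24 pairs were positive, and 2 pairs passed by Pearson's r and 0 by rank. At an unadjusted permutation p under 0.05 stood 14 pairs by r and 6 by rank with all libraries, and 5 pairs by r and 4 by rank without control animal 5.

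Mbp with Prx and Mbp with Pmp2 were the 2 pairs that passed by Pearson's r both with and without control animal 5. Without that animal Pmp2 fell below the count filter and had 0 to 41 counts per library, so its pass there rests on poorly measured values. Mbp and Prx correlated with r = 0.94 (permutation p = 0.00017, adjusted p = 0.00238) and rho = 0.90 (permutation p = 0.00052, adjusted p = 0.0146) over 11 libraries. Without the 2 libraries farthest from the median of Mbp, control animals 5 and 2, r was 0.892. Over the 10 libraries without control animal 5, r was 0.838 (permutation p = 0.00265, adjusted p = 0.0371) and rho was 0.867 (adjusted permutation p = 0.058). Mbp and Pmp2 correlated with r = 0.968 (permutation p = 2e-05, adjusted p = 0.00056) and rho = 0.852 (permutation p = 0.00159, adjusted p = 0.0223) over 11 libraries, and without control animals 5 and 2 r was 0.843. Over 10 libraries r was 0.901 (permutation p = 0.00056, adjusted p = 0.0157) and rho was 0.802 (adjusted permutation p = 0.109). Among the 10 ordinary libraries Mbp thus rose with Prx and Pmp2 by r, while neither pair passed by rank. High-fat animals 5 and 1 and control animal 2 were at the upper end and control animal 1 at the lower end for Mbp and Prx. Prx and Pmp2 themselves had r = 0.898 (adjusted permutation p = 0.00763) and rho = 0.756 (adjusted permutation p = 0.0704) over 11 libraries, 0.806 without control animals 5 and 1, and r = 0.715 over 10 libraries (adjusted permutation p = 0.154).

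Sox10 passed with Prx, Mbp and Pmp2 by Pearson's r over all libraries. With Prx it had r = 0.92 (adjusted permutation p = 0.00635) and rho = 0.755 (adjusted permutation p = 0.0704) over 11 libraries, 0.611 without control animals 5 and 1, and r = 0.765 over 10 libraries (adjusted permutation p = 0.0956). With Mbp it had r = 0.894 (adjusted permutation p = 0.00958) and rho = 0.682 (adjusted permutation p = 0.115), 0.624 without control animals 5 and 2, and r = 0.633 over 10 libraries (adjusted permutation p = 0.271). With Pmp2 it had r = 0.83 (adjusted permutation p = 0.0303) and rho = 0.524 (adjusted permutation p = 0.317), 0.402 without control animals 5 and 2, and r = 0.466 over 10 libraries (adjusted permutation p = 0.547). Those 3 relations no longer passed once control animal 5 was left out, and neither did that of Prx with Pmp2.

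Pmp22 and S100b, the more widely expressed members, passed with each other alone. They correlated with r = 0.774 (adjusted permutation p = 0.0288) and rho = 0.527 (adjusted permutation p = 0.317) over 11 libraries. That relation rested on control animal 5, since r was 0.518 without it (adjusted permutation p = 0.501) and 0.499 without control animals 5 and 6. Mbp with Pmp22 had r = 0.773 over 11 libraries (adjusted permutation p = 0.0724) and 0.209 over 10 (adjusted permutation p = 0.665). Mbp with S100b had r = 0.657 over 11 libraries (adjusted permutation p = 0.0726) and 0.213 over 10 (adjusted permutation p = 0.665). Sox10 with S100b turned in sign, with r = -0.403 without control animal 5 (adjusted permutation p = 0.599) and 0.402 with all libraries (adjusted permutation p = 0.281), and neither passed.

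No correlation of Egr2 with the sheath genes it is known to activate passed the test. Its r was 0.175 with Mbp (adjusted permutation p = 0.65) and 0.0307 with Prx (adjusted permutation p = 0.93) over 11 libraries. Leaving out control animal 5 gave 0.157 with Mbp (adjusted permutation p = 0.685) and -0.269 with Prx (adjusted permutation p = 0.665). Nefm came closest to S100b, with r = 0.64 (adjusted permutation p = 0.0751) and rho = 0.691 (adjusted permutation p = 0.115) over 11 libraries, and with Mbp it had r = 0.57 (adjusted permutation p = 0.101). Egr2 had 9 to 99 counts and Nefm 8 to 92 counts per library, so counting error takes part in these correlations.

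**Figure D3:**
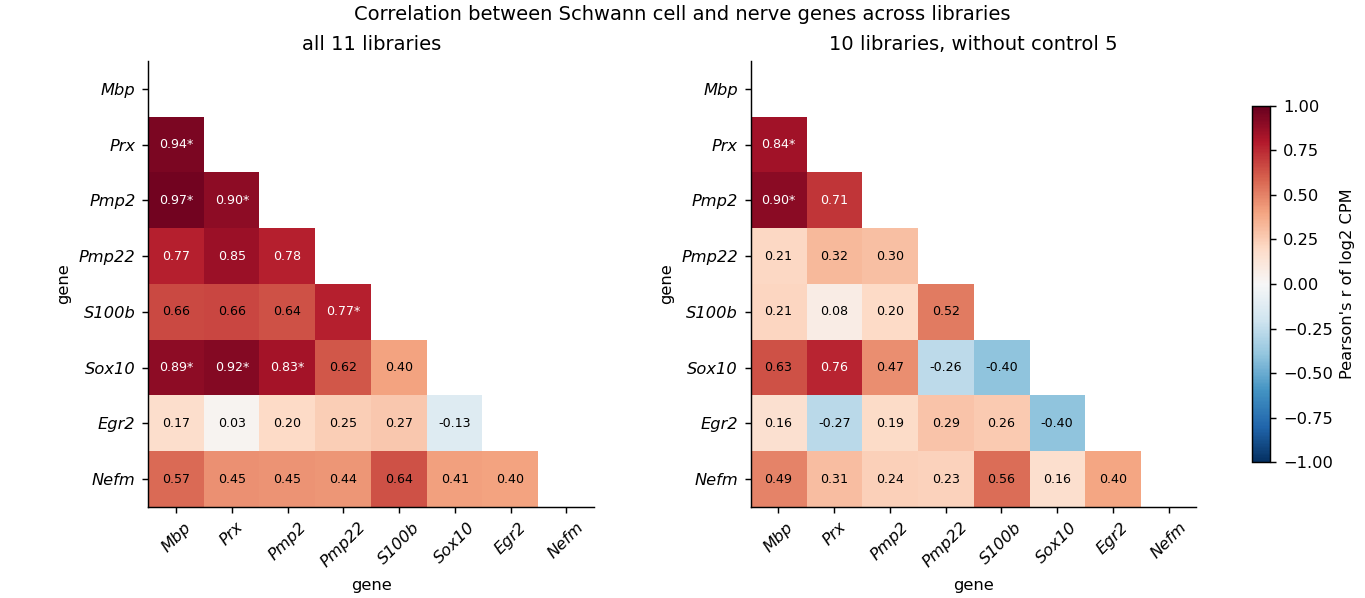
Pearson's r of log2 CPM for the 28 pairs of Schwann cell and nerve genes, over all 11 libraries on the left and over the 10 libraries without control animal 5 on the right; a star marks an adjusted permutation p under 0.05. On the left 7 pairs carry a star and on the right 2, Mbp with Prx and Mbp with Pmp2, although Pmp2 is below the count filter on the right.

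**Figure D4:**
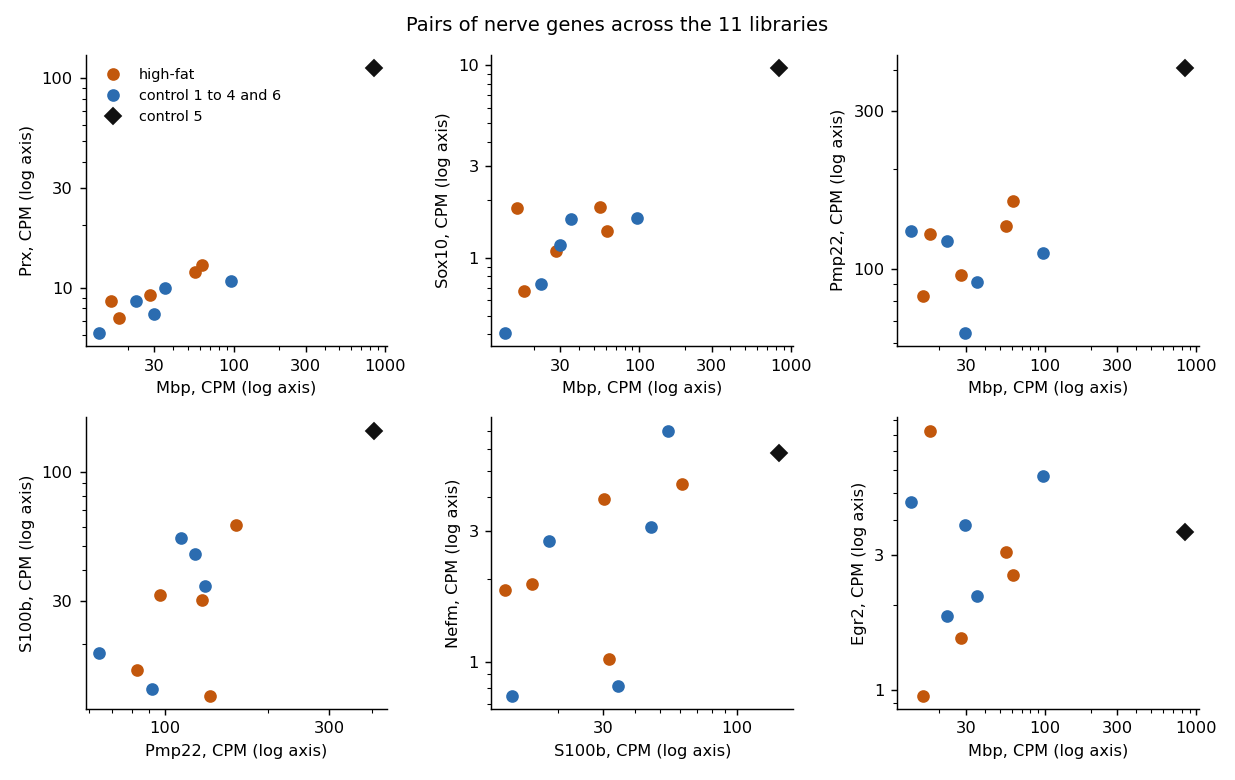
Level in CPM on log axes of 6 pairs of Schwann cell and nerve genes, with 1 point per library, orange for high-fat animals, blue for control animals and a diamond for control animal 5. Mbp and Prx climb together among the ordinary libraries, whereas Mbp and Pmp22 show r = 0.209 without the diamond.

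Each gene was also set against all other tested genes by rank correlation over the 11 libraries, as a description. Among the genes most like Mbp were Prx (rho = 0.90), Tbk1 (0.882) and Pmp2 (0.852), so its fellow sheath genes were near the top of the order. Among those nearest to Prx were Mbp (0.90), Inpp4a (0.873), Tbk1 (0.855) and B3galt4 (0.845). Among those nearest to Pmp2 were B3galt4 (0.897), Ccdc39 (0.888), Ccnc (0.861) and Mettl14 (0.861). Among the 100 genes most like each, Mbp and Prx shared 48 and, without control animal 5, 37. Mbp and Pmp2 shared 39 and, without that animal, 34.

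For the other 5 genes the nearest ranks were held by genes that are no myelin genes. Pmp22 was most like Pbdc1 (0.955), Maob (0.936), Etv1 (0.927), Mboat1 (0.927) and Xpc (0.927), of which Etv1 was on the list of perineurial and endoneurial genes. S100b was most like Zfp74 (0.945), Xpot (0.936), Chac2 (0.918), Ankib1 (0.918) and Pggt1b (0.918). Sox10 was most like Btaf1 (0.945), Zfp653 (0.927), Mss51 (0.927), Ppox (0.909) and Myh6 (0.845). Egr2 was nearest to Asf1a (0.873), Tmem216 (0.864), Mob4 (0.855), Ublcp1 (0.855) and Mir3583 (0.845), and Nefm to Shpk (0.918), Trim32 (0.909), Zmat3 (0.90), Fem1c (0.90) and Map4k5 (0.891). The 11 points of each comparison share their libraries and their scaling, and the values of rho describe these animals only.

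Other genes of the myelin sheath stood with the 8 in control animal 5. Of 11 tested genes on a list of other myelin proteins, control animal 5 was the highest library for 7, and the median ratio of control animal 5 to the median of the 10 other libraries was 6.38, against 6.18 for the 8 nerve genes. Mal, a proteolipid of myelin membranes, had 48.6 CPM in control animal 5, against 4.26 to 6.49 CPM in high-fat animals and 3.92 to 9.06 CPM in the other control animals. At the lower end of the list, Cryab, a small heat shock protein abundant in slow muscle, Cd9, a widely expressed tetraspanin, and Cnp and Mpzl1 were at 0.961 to 1.29 times the median of the other libraries.

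In the diet comparison 8 of the 11 genes had a lower mean in the high-fat group with all libraries, beside 49.1% of all genes. None was called, and 2 had an unadjusted p under 0.05, beside 4.84% of all genes. After control animal 5 was left out, 3 were lower and 8 higher, beside 53.5% of all genes lower, 0 were called and 0 had an unadjusted p under 0.05, beside 3.83%. Mal had a log2 fold change of -1.32 ± 0.63 with all libraries and -0.15 ± 0.24 without control animal 5 (SE). The median log2 fold change of the list was -0.80 with all libraries and 0.14 without control animal 5.

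Lists for the nerve's other compartments had smaller median ratios, though some of their genes stood far above the other libraries. On a list of non-myelinating and immature Schwann cell genes, control animal 5 was the highest for 4 of 7 tested, with a median ratio of 2.00. Plekhb1 had 43.0 CPM in control animal 5, against 4.69 to 10.7 CPM in high-fat animals and 4.98 to 8.22 CPM in the other control animals. Scn7a, a sodium channel gene of non-myelinating Schwann cells, had 16.4 CPM there, against 4.01 to 7.99 CPM in high-fat animals and 2.69 to 4.38 CPM in the other control animals. Cdh19, on the same list and with too few counts to test, had 4.72 CPM in control animal 5 and at most 0.305 CPM elsewhere. Ncam1 and Gap43, which regenerating muscle or axons also express, were at 1.03 and 0.682 times the median of the other libraries. Of 9 tested Schwann cell regulators control animal 5 was the highest for 3, Dhh, Lgi4 and Nab1, with a median ratio of 1.17. Dhh, the Schwann cell signal that patterns the perineurium, was at 13.8 CPM, against 1.27 to 3.04 CPM in high-fat animals and 1.55 to 3.47 CPM in the other control animals.

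Genes listed for the perineurium, the cell sleeve around each nerve bundle, also stood high in control animal 5. Control animal 5 was the highest for 4 of 5 tested genes of perineurium and endoneurium, and the summed level of the 7 listed genes with a row was 223 CPM there, against 66.4 to 103 CPM in high-fat animals and 57.3 to 76.7 CPM in the other control animals. Most of that sum was Itgb4, which had 148 CPM in control animal 5, against 31.0 to 54.9 CPM in high-fat animals and 27.0 to 41.8 CPM in the other control animals. Which cells made it was not tested. Cldn1, a tight junction claudin of the perineurial barrier, had 17.9 CPM there, against 4.58 to 7.93 CPM in high-fat animals and 2.16 to 5.75 CPM in the other control animals. Krt19, also too low to test, had 8.76 CPM there and at most 1.25 CPM elsewhere. Both Cdh19 and Krt19 were named after their values had been seen. The glucose transporter Slc2a1, dense in perineurium, had 22.8 CPM, against 7.28 to 13.8 CPM in high-fat animals and 7.75 to 13.0 CPM in the other control animals. Of 6 tested genes of the node and paranode, control animal 5 was the highest for 3. Without that animal only 4 genes of this list had enough counts to test, so the count of 3 can depend on the filter. Of all 9 listed, tested or not, control animal 5 was the highest for 5. Nfasc had 44.3 CPM in control animal 5, against 3.06 to 14.8 CPM in high-fat animals and 4.97 to 19.5 CPM in the other control animals.

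Axonal and neuronal genes had a median ratio of 1.07 over the 6 of 18 listed that had enough counts to test. The highest library was control animal 5 for 2 of these 6, Uchl1 and Prph, and for 5 of all 18, with Nefl, Calca and Ina besides. Nefl, the light neurofilament subunit, had 3.01 CPM in control animal 5, against 0.107 to 0.716 CPM in high-fat animals and 0.0939 to 0.734 CPM in the other control animals, 4.11 times the next library. Uchl1 had 16.3 CPM in control animal 5, against 5.33 to 9.37 CPM in high-fat animals and 3.99 to 12.3 CPM in the other control animals. Stmn2 had 16.4 CPM in control animal 5, inside the 4.74 to 25.3 CPM of high-fat animals and the 4.28 to 34.6 CPM of the other control animals. Nefh, Thy1 and Tubb3 were at 1.15, 0.796 and 0.817 times the median of the other libraries. Chat, Slc5a7 and Calcb, which mark the cell bodies of motor and sensory neurons, had no count in any library.

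Markers of the central glia and of other relatives of Schwann cells were low, and control animal 5 was the highest library for both summed levels. The oligodendrocyte list, for the cells that make myelin with Mbp in the brain, summed to 2.74 CPM in control animal 5, against 0.510 to 1.76 CPM in high-fat animals and 1.02 to 2.16 CPM in the other control animals, and its defining gene Opalin had no count in any library. Melanocyte genes, which share Sox10, summed to 2.53 CPM there, against 0.639 to 1.41 CPM in high-fat animals and 1.03 to 1.29 CPM in the other control animals, and Tyr had no count in any library.

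Lists for most other cell types of muscle had few or no genes at their highest in control animal 5. Macrophage genes were low in control animal 5, at a summed 279 CPM, against 242 to 1452 CPM in high-fat animals and 353 to 840 CPM in the other control animals, and 0 of 9 were highest there. Control animal 5 was the highest for 0 of 8 adipocyte, 0 of 8 fibroblast, 0 of 5 lymphocyte and mast cell and 0 of 4 tendon and cartilage genes. It was the highest for 2 of 7 endothelial genes and 1 of 6 smooth muscle genes, with median ratios of 1.24 and 1.22. The slow fibre genes had a median ratio of 1.04 and none was highest in control animal 5. Of 8 fast fibre genes 2 were highest there, Myh1 at 559 CPM, against 39.5 to 89.5 CPM in high-fat animals and 19.4 to 142 CPM in the other control animals, and Actn3 at 222 CPM, against 21.0 to 47.8 CPM in high-fat animals and 10.4 to 132 CPM in the other control animals. Those 2 were named after their values had been seen. The part of fibre composition in the nerve gene values was not tested.

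Genes of the neuromuscular junction and of denervated fibres, where nerve meets muscle, were not raised in control animal 5, which was the highest for 0 of 13 with a median ratio of 0.838. In the diet comparison 12 of the 13 averaged higher in high-fat offspring and 1 lower, beside 49.1% of all genes lower. An unadjusted p under 0.05 was reached by 6, beside a background of 4.84% of all genes, and 0 were called. With control animal 5 left out, 9 were higher and 4 lower, beside 53.5% of all genes lower. Of the 13, 4 then had an unadjusted p under 0.05, beside 3.83%. Other lists also leaned to one side. Of 9 macrophage genes 9 averaged higher in high-fat offspring (median log2 fold change 0.68, and 0.54 without control animal 5), of 8 fast fibre genes 8 averaged lower (-0.79, and -0.74 without it), and of 9 slow fibre genes 8 averaged lower (-0.083, and 9 at -0.098 without it). None of these was called, and 2 macrophage, 0 fast fibre and 0 slow fibre genes had an unadjusted p under 0.05 with all libraries. The part of these cell types in the junction and nerve gene values was not tested. Chrnd, the delta subunit of the acetylcholine receptor, ranged from 156 to 251 CPM in high-fat animals and had 143 CPM in control animal 5 and 105 to 192 CPM in the other control animals. Its log2 fold change was 0.41 ± 0.16 with all libraries and 0.37 ± 0.18 without control animal 5 (SE; unadjusted p = 0.0257 with all libraries, and not called after adjustment).

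**Figure D5:**
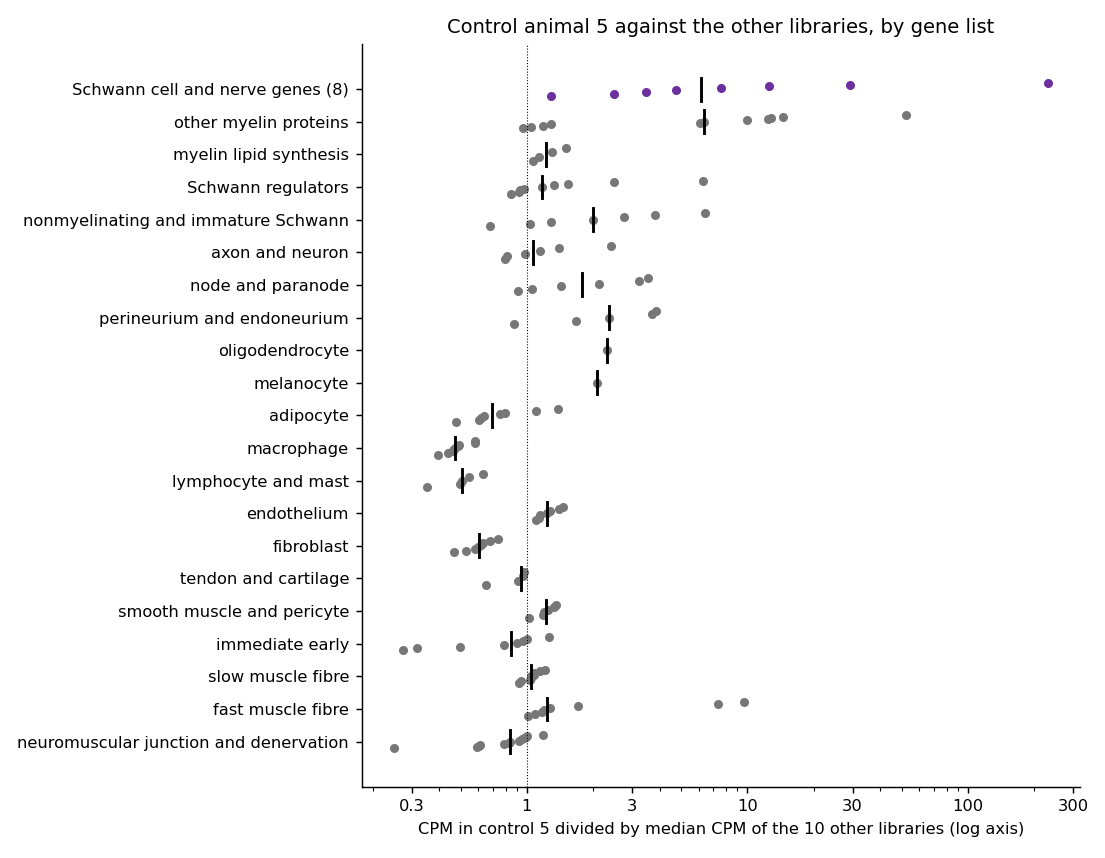
CPM in control animal 5 divided by the median CPM of the 10 other libraries, on a log axis, for each tested gene of 21 lists; each dot is a gene, black bars are list medians and purple marks the 8 Schwann cell and nerve genes. The 8 nerve genes (median 6.18) and other myelin proteins (median 6.38) lie farthest right, while macrophage genes lie at a median of 0.473.

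Of the 42 genes that stood over 4 times above every other library in control animal 5, 20 were on one of the lists and 4 were among the 8, Mbp, Prx, Pmp2 and Sox10. These are counted from the data and are a description of 1 library. Among the largest steps were Faim2 at 17.5 times the next library, Pmp2 at 17.0 times, Cdh19, a cadherin of Schwann cell precursors, at 15.5 times and Shh at 15.2 times. On the list of myelin lipid synthesis, control animal 5 was the highest for 1 of 4 tested genes, with a median ratio of 1.22 and none over 2 times the next library. Its untested genes Ugt8 and Fa2h, enzymes that build the galactolipids of myelin, stood 12.0 and 9.51 times above the next library, and both had too few counts for the fit. Ncmap, whose promoter is printed above, had 8.28 CPM in control animal 5 and at most 0.832 CPM elsewhere. Cntf, a neurotrophic factor of myelinating Schwann cells, had 28.3 CPM in control animal 5 and at most 3.50 CPM elsewhere. The genes of this paragraph were picked by the size of their step, so their values carry no test.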

How the data were processed

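Messenger RNA libraries of soleus muscle from 11 rats were analysed from the raw read counts per gene symbol that the authors deposited as 1 table. Per the labels' protocols, 2 µg of total RNA per animal went into poly(A) selection and libraries were sequenced for 36 cycles. FastQC, BWA, HTSeq and edgeR are named, with no version, per the submitters' processing notes. Genome build, annotation and strand setting stay not given in the sources used here. Reads this short can be split or lost between near-identical copies of a gene. Columns were matched to animals by the names in the labels, and animals are numbered here within each diet group. Symbols that a spreadsheet had rewritten as dates head 24 rows, with 0.107% of counts, which were kept.

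Genes were kept by edgeR's filterByExpr (10814 kept, 5996 removed) and scaled by TMM (factors 0.897 to 1.12). Diet groups were compared by the quasi-likelihood F test of edgeR, adjusted by Benjamini-Hochberg over all genes tested. The common biological coefficient of variation was 0.234, and each standard error is the size of the log2 fold change over the root of its F statistic. Correlations used log2 CPM with a prior count of 2, and 100000 random pairings. The likeness of genes used Spearman's rho of CPM. Library totals ran from 10.2 to 15.4 M counts, and intervals and limits of detection cover counting error only.

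The 8 genes, the 20 other gene lists, of which 13 genes had no row, and the tests were chosen with earlier results of these data known. Named genes were the 8, the 4 of highest mean CPM per list (6 for other myelin proteins and for axonal and neuronal genes) and the 5 most like each of the 8. Groups of 5 or fewer counted genes were named in full, and other genes are said to be chosen after their values were seen. Some genes that these rules pick are not named, though they stayed in the fit and in the counts.

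Alternatives were scaling by RLE or by library size, no filter on low counts or a filter of 1 CPM in 6 libraries, DESeq2, limma voom with quality weights, a prior count of 0.5, linear CPM, and leaving out each library in turn. DESeq2 without control animal 5, the column number as a block, the first letter of the animal names as a covariate, the correlations with list scores and the count of genes standing apart were added after seeing the data. In simulated data for the comparison of maternal high-fat with control, with 10749 genes in the fit, 25.8% of genes changed 1.5-fold, 81.5% of those changed 2-fold and 100% of those changed 4-fold were recovered. A total of 6 unchanged genes were among the 141 called. Changed genes were drawn at random and no simulated library was made to stand apart. The rates therefore do not apply to genes such as Mbp and Pmp2 with control animal 5 included. Python 3.11.15 was used with SciPy 1.17.1, pandas 2.3.3, NumPy 2.4.6 and matplotlib 3.10.9, and R 4.3.3 with DESeq2 1.42.0, edgeR 4.0.16 and limma 3.58.1.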

Additional observations from a re-analysis of the deposited data

Results flagged for a closer look

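In the control group of 6, the value of control animal 5 lay farther from its neighbours than Dixon's criterion allows for 6 of the 8 nerve genes. The values were 843 CPM for Mbp, 112 CPM for Prx, 53.1 CPM for Pmp2, 405 CPM for Pmp22, 147 CPM for S100b and 9.65 CPM for Sox10. The gap to the next control animal, divided by the range of the group, was 0.696 for S100b and 0.956 for Prx, with the other 4 between them, against a critical value of 0.625. On the log2 scale the ratio was above that value for Prx alone, at 0.806, and was 0.417 to 0.615 for the other 5. Control animal 5 had been singled out beforehand and the 6 genes share 1 library, so the criterion describes that library and is no separate support. In the high-fat group of 5, high-fat animal 3 stood apart for Egr2 at 8.28 CPM, with a ratio of 0.711 against a critical value of 0.71, and with 0.474 on the log2 scale. The critical values mark about 1 in 20 groups of normally distributed values by chance. Untransformed CPM need not be distributed so, and that rate may not hold here.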

How the results depend on the processing

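No member passed the adjusted threshold under any scaling, filter, test or left-out library tried, and edgeR called 0 genes over the whole table in each. DESeq2 called 7 genes over the whole table and, without control animal 5, a choice made after seeing the data, 9. The fold changes of Mbp, Prx, Pmp2, Pmp22, S100b and Sox10 kept their negative sign when any library other than control animal 5 was left out (Pmp2 fell below the count filter without control animal 2 or 4), from -4.87 to -3.79 for Pmp2 and from -2.58 to -2.10 for Mbp. Egr2 ran from -0.83 to 0.06, and was above 0 without high-fat animal 2, high-fat animal 4 or control animal 2. Nefm ran from -0.66 to -0.02. The count of called pairs was 7 by Pearson's r on log2 CPM, 14 on linear CPM and 12 with library size scaling. Leaving out each library in turn gave 2 to 12 pairs by r and 0 to 6 by rank, with 2 and 0 without control animal 5, 12 by r without control animal 1, and 6 by rank without high-fat animal 2. By rank there was 1 pair without high-fat animal 1, high-fat animal 5 or control animal 2, and there were 0 without control animal 4. The causes were not tested. Column names of both diets share the numbers 1, 3, 4, 5 and 6, while the animals came from separate litters. Deviations of same-numbered libraries from their group means correlated from -0.355 to 0.0373 over the 5 pairs, and 0 of the 10 libraries correlated best with its own number, so the numbers were not taken to pair the animals. With the number as a replicate block, tried after seeing the data and without control animal 2, edgeR called 0 members and 0 genes. Mbp was then at -0.42 and Nefm at 0.17. Low counts of Pmp2, Sox10, Egr2 and Nefm limit their precision, and 11 animals limit all the comparisons.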

Other observations

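Scores of 18 gene lists, each the mean of its tested genes' log2 CPM after centring each gene, were set against the 8 nerve genes across libraries, which gave 144 relations. With all 11 libraries 7 passed by Pearson's r (permutation tests, Benjamini-Hochberg adjustment over the 144) and 0 by rank, with 26 and 16 at an unadjusted p under 0.05. Those 7 were all with scores of nerve lists. Mbp and Prx passed with other myelin proteins (r = 0.928 and 0.979). Pmp22 passed with Schwann cell regulators (r = 0.846), non-myelinating and immature Schwann cell genes (r = 0.919) and the perineurium and endoneurium score. S100b passed with myelin lipid synthesis (r = 0.84) and non-myelinating and immature Schwann cell genes (r = 0.823). Without control animal 5, 0 passed by either measure, with 18 by r and 15 by rank at an unadjusted p under 0.05. In these 10 libraries Pmp22 had r = 0.83 with the regulator score and 0.842 with the non-myelinating score (adjusted permutation p = 0.129 for each). S100b had 0.783 with myelin lipid synthesis and 0.662 with the non-myelinating score (adjusted permutation p = 0.174 and 0.296). With other myelin proteins r was 0.743 for Mbp and 0.74 for Prx (adjusted permutation p = 0.198 for each). Pmp22 correlated with the perineurium and endoneurium score at r = 0.924 over 11 libraries (adjusted permutation p = 0.0108; rho = 0.836, adjusted permutation p = 0.15) and at 0.837 over 10 (adjusted permutation p = 0.129), with 0.808 without control animals 5 and 6. S100b correlated with the adipocyte score at r = 0.79 over the 10 libraries without control animal 5 (permutation p = 0.00467, adjusted p = 0.134; rho = 0.83, adjusted permutation p = 0.304) and at 0.478 over all 11 (adjusted permutation p = 0.457), and r was 0.62 when high-fat animal 1 and control animal 4 were also left out. S100b is also made by adipocytes. Over those 10 libraries r was also 0.713 for Pmp22 with the macrophage score (rho = 0.758), 0.735 with the lymphocyte and mast cell score (rho = 0.745) and 0.747 with the fibroblast score (rho = 0.588), and for S100b 0.755 with the lymphocyte and mast cell score (rho = 0.758) and 0.747 with the fibroblast score (rho = 0.697). Their adjusted permutation p ran from 0.198 to 0.221 by r. Pmp22 ran against the slow fibre score, with r = -0.821 over the same 10 libraries (permutation p = 0.00357, adjusted p = 0.129), rho = -0.842 (adjusted permutation p = 0.304) and r = -0.743 without control animal 6 and high-fat animal 2 as well. Over all 11 libraries that r was -0.331 (adjusted permutation p = 0.681). Egr2 had r = 0.554 with the immediate early score over all 11 libraries (adjusted permutation p = 0.319), with rho = 0.418 (adjusted permutation p = 0.655). Over the 10 libraries without control animal 5 that r was 0.645 (permutation p = 0.0448, adjusted p = 0.358), and neither r passed.

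Further genes stood over 4 times above every other library in control animal 5 without being on a list, named here by that step alone. Cdh1, the epithelial cadherin that Schwann cells use at their non-compact membranes, had 10.7 CPM there and at most 1.34 CPM elsewhere. Sfrp5, a secreted Wnt inhibitor, had 53.6 CPM there and at most 11.2 CPM elsewhere.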
